A study of Mus musculus with 10 samples.

Results

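Mucins and the other proteins that goblet cells make for the colonic mucus were followed through the T-cell transfer model of colitis. The 10 genes Muc1, Muc2, Muc4, Muc13, Fcgbp, Clca1, Tff3, Agr2, Spink4 and Klk1 were taken by name, and all probe sets annotated to 1 of them alone were used. They held 18 of the 34945 probe sets with a single gene and 10 of the 18193 genes measured. All 10 mice were C57BL/6 with the genotype Rag1-/-, so control and inflamed animals alike made no T or B cells of their own. The 4 controls had received regulatory T cells (Tregs) and the 6 inflamed animals naïve T cells, both at 10 weeks of age. Colons were collected 2 to 3 months later, at an age of 4 to 5 months, and the labels call 3 of the inflamed colons severely and 3 moderately inflamed. Each array held the RNA of the distal colon of 1 mouse, cut from the rectum to the junction with the proximal colon. Values are log2 expression from Affymetrix 3' arrays. As whole tissue was measured, fewer goblet cells and less RNA per goblet cell cannot be told apart.

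The colon is covered by a mucus gel that keeps bacteria away from the epithelium. Goblet cells secrete it as a net of Muc2, the gel-forming mucin, together with proteins packed into the same granules. Mucins of the other kind, among them Muc1, Muc4 and Muc13, stay anchored in the apical membrane of epithelial cells and form the glycocalyx under the gel. Fcgbp is a large mucus protein built from von Willebrand domains that binds to Muc2, and Clca1 is a secreted metalloprotease that cleaves Muc2. Tff3 is a trefoil peptide that promotes repair of the epithelium, Spink4 is a Kazal-type protease inhibitor of goblet cells, and Klk1 is tissue kallikrein, a serine protease that releases kinins. Agr2 is a protein disulfide isomerase of the endoplasmic reticulum that goblet cells need to make Muc2.

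Inflamed colons carried more RNA of the 3 membrane mucins among the members and less of 2 of the 6 secreted proteins, Klk1 and Muc2, and of Agr2. Against control, Muc1, Muc4 and Muc13 rose, Klk1, Muc2 and Agr2 fell, and Clca1, Fcgbp, Tff3 and Spink4 did not pass the test (two-sided limma test at a Benjamini-Hochberg adjusted p under 0.05). That is 3 of 10 genes higher, where 18.5% of all genes tested were called higher, and 3 of 10 lower, where 21.2% were called lower, so the counts by themselves lie near the background. All 3 members that rose were membrane mucins, and none of the secreted members was called higher. Klk1, Muc1 and Muc4 kept their call under every setting tried. The differences of Muc13, Muc2 and Agr2 were small (0.24, -0.39 and -0.31), and their calls were lost under some settings. With each array centred on its median the count was 3 higher and 1 lower. The median difference over the 10 genes was -0.35, against 0.03 over all genes. The sizes ran from a fall of 2.43 for Klk1 to a rise of 1.50 for Muc1. The groups did not overlap for 2 of the 10 genes, Clca1 and Klk1, against 31.7% of all genes.

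**Figure D1:**
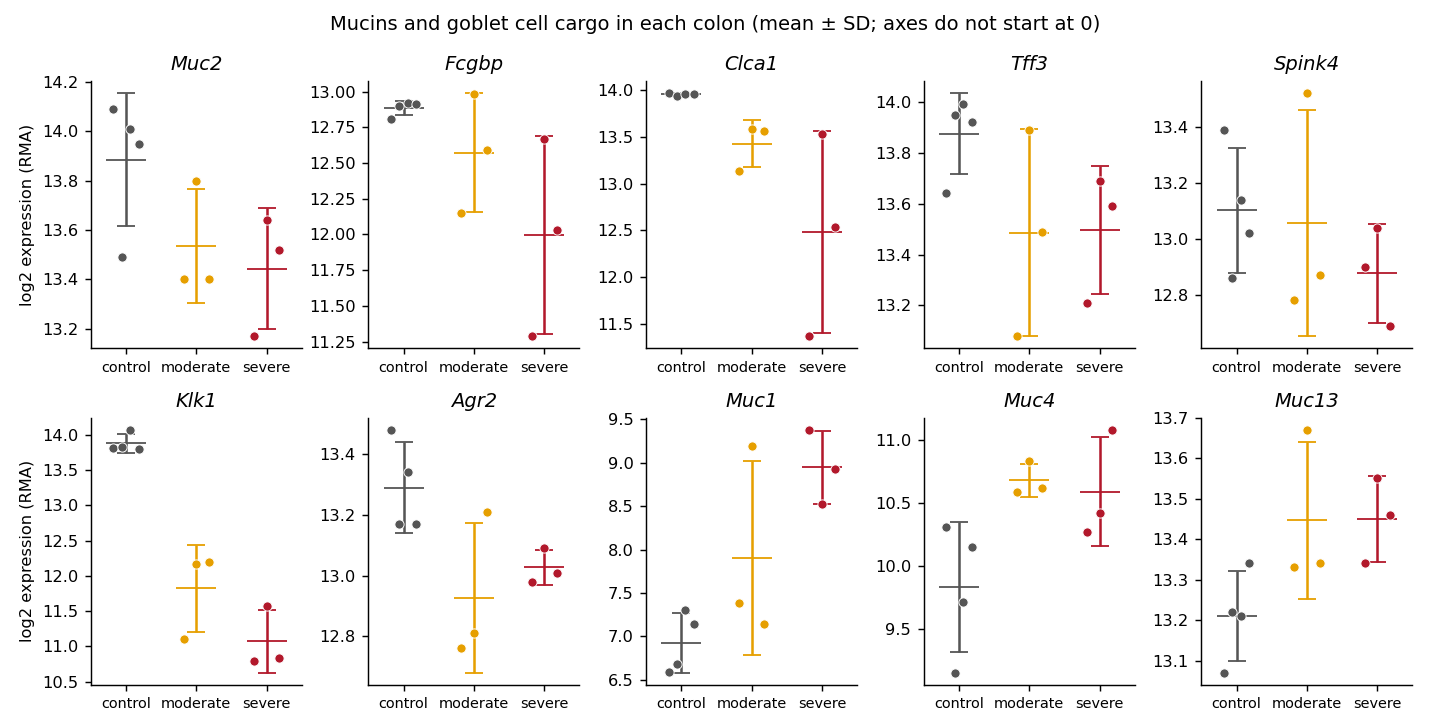
Log2 expression of each of the 10 genes in each colon (points), with the group mean and SD (bars), in 4 control, 3 moderately and 3 severely inflamed colons; each panel has its own axis. All 6 inflamed colons lie below the controls for Klk1 and Clca1, and the severely inflamed colons of Clca1 spread from 11.37 to 13.53 while the 4 controls lie between 13.94 and 13.97.

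The regions before 5 of the genes are shown. These are Muc1 and Muc4, the members that rose most, Klk1 and Muc2, the largest falls among members called lower, and Fcgbp. Fcgbp, a secreted protein, did not pass the test, though its difference of -0.60 was larger than the -0.39 of Muc2. RefSeq start sites of build GRCm38.p6 were at hand for 7 of the 10 genes, Muc1, Muc2, Muc4, Muc13, Fcgbp, Agr2 and Klk1. Each line gives the 250 bases before the annotated start, 5′ to 3′, with matches to the motifs searched in capitals.
Muc1, chr3:89228806-89229055, + strand: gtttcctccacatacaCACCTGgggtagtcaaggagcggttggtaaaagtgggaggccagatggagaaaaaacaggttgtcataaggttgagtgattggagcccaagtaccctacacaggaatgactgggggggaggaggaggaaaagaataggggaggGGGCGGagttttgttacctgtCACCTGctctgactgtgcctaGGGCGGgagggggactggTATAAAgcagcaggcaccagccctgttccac
Muc4, chr16:32735636-32735885, + strand: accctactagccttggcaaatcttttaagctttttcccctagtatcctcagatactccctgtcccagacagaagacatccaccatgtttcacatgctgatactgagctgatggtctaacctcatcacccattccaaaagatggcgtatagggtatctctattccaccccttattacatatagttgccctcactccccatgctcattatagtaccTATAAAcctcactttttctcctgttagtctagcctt
Muc2, chr7:141690090-141690339, + strand: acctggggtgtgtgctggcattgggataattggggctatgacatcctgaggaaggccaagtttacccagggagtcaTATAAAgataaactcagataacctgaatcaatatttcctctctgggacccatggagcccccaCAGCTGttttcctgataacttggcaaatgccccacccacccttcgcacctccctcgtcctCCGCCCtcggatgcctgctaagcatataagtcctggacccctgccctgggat
Fcgbp, chr7:28070986-28071235, + strand: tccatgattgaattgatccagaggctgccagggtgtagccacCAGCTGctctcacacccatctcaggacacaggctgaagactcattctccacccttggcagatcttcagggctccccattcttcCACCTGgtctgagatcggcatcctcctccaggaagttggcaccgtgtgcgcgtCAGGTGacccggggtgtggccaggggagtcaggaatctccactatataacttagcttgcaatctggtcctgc
Klk1, chr7:44225110-44225359, + strand: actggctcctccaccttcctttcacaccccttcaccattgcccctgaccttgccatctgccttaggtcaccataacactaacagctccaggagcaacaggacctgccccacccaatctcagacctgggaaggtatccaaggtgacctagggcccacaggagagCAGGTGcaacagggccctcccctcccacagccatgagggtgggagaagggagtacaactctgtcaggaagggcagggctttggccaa

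The motifs searched on both strands were TATAAA, the E-boxes CAGCTG and CACCTG, the STAT motif TTCNNNGAA, the STAT6 motif (the same with 1 more N), and the GC box GGGCGG. Capitals that read CAGGTG or CCGCCC are matches on the other strand, and CAGCTG reads the same on both. Counted back from the start, TATAAA lay at -31 in Muc1, -36 in Muc4 and -174 in Muc2, and 12.4% of 32851 mouse windows of this length hold it. No TATAAA was found in the windows of Fcgbp and Klk1. CAGCTG was found before Muc2 and Fcgbp (13% of windows), and CACCTG before Muc1, Fcgbp and Klk1 (17.2%). GGGCGG was found before Muc1 and Muc2 (32.7% of windows). TTCNNNGAA lay only in a window of Muc13, among the 8 windows of the 7 genes (7.02% of all windows), and the STAT6 motif in none of the 8 (5.85%). These matches describe the letters in the windows and not sites of binding.

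Among the membrane mucins the largest rise was that of Muc1, a mucin whose cytoplasmic tail also carries signals (chr3:89229056-89233381). Its values were 6.59, 6.68, 7.30 and 7.14 in control replicates 1 to 4, 7.39, 9.19 and 7.14 in the moderately inflamed colons and 9.38, 8.53 and 8.93 in the severely inflamed colons. Every severely inflamed colon lay above the controls, while moderate replicate 3 was inside their range and moderate replicate 1 just above it. Muc1 thus went from 6.93 ± 0.34 (SD, n = 4) to 8.43 ± 0.95 (SD, n = 6), a rise of 1.50 on the log2 scale or 2.83-fold (standard error 0.42, limma adjusted p = 0.0139). It passed the test under every setting tried, with rises between 1.31 and 1.76.

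Muc4, a long membrane mucin with domains like those of epidermal growth factor, lies on chromosome 16 (chr16:32735886-32782391). Its brightest probe set read 10.31, 9.15, 9.71 and 10.15 in control, 10.59, 10.83 and 10.62 in moderately and 10.27, 10.42 and 11.08 in severely inflamed colon. Only severe replicate 1 fell within the control range, and control replicate 2 was the lowest colon of all. Muc4 rose by 0.81 or 1.75-fold (standard error 0.22, limma adjusted p = 0.0113), and by 0.58 to 0.97 when any 1 array was left out, with the call kept. Its probe set 1427398_at, less bright, rose by 0.95 (adjusted p = 0.00657) without overlap between the groups. The probe set 1432119_at was dim at 2.96 to 3.44, below the lower quartile of every array, and did not pass the test.

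Muc13, which also spans the membrane and is abundant on the surface of the healthy colon, lies further along the same chromosome (chr16:33794037-33819929). It read 13.07, 13.22, 13.21 and 13.34 in control, 13.33, 13.67 and 13.34 in moderately and 13.34, 13.55 and 13.46 in severely inflamed colon. The highest control met the lowest inflamed colons at about the same level. Muc13 rose by 0.24 or 1.18-fold (standard error 0.09, limma adjusted p = 0.0452). This call ended without control replicate 1, 2 or 3, severe replicate 2 or 3, or moderate replicate 2 (0.19 to 0.24, adjusted p from 0.0732 to 0.137), and relative to the mean of pan-epithelial genes (0.14, adjusted p = 0.178). It also ended under the methods' t test, in the 3-group model, with the mean over probe sets and without _x_at and _s_at probe sets (0.24 to 0.27, adjusted p from 0.0546 to 0.156).

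Other mucins were measured for 6 of the 12 genes listed, Muc3, Muc5ac, Muc5b, Muc15, Muc16 and Muc20. Of them 1 fell, 0 rose and the other 5 were not called, where 21.2% of all genes fell and 18.5% rose. Muc3, another membrane mucin of the brush border, was 14.04 to 14.09 in control and lay at 13.38 to 13.84 in inflamed colon, with no overlap. Muc3 fell by 0.39 (standard error 0.09, limma adjusted p = 0.00417). The rise of the members was therefore not shared by all membrane mucins measured. Muc20, whose gene overlaps that of Muc4 on the reference, was 5.36 in control and differed by 0.24 (adjusted p = 0.0883). Muc5ac and Muc5b, gel-forming mucins of stomach and airway that lie beside Muc2 on chromosome 7, were 5.73 and 5.18 in control, and differed by -0.02 and 0.13 (adjusted p = 0.871 and 0.417).

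Of the secreted proteins Klk1 fell furthest (chr7:44225360-44229622). It read 13.81, 13.83, 14.07 and 13.80 in control, 11.11, 12.17 and 12.19 in moderately and 10.80, 11.58 and 10.83 in severely inflamed colon. All inflamed colons lay below all controls by a wide gap, and moderate replicate 1 lay within the range of the severely inflamed colons. Klk1 fell by 2.43 on the log2 scale or 5.4-fold (standard error 0.28, limma adjusted p = 4.22e-05). It passed under every setting tried.

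The 4 probe sets of Klk1 did not move together. Probe sets 1448107_x_at and 1415837_at fell by 2.43 and 2.48, and 1455977_x_at, at 9.82 to 10.95 in control, fell by 1.13 (adjusted p = 0.00176). The fourth, 1460050_x_at, stayed at 6.26 to 6.45 on all 10 arrays and differed by 0.06 (adjusted p = 0.475). With the mean over the 4 probe sets the fall of the gene was 1.49. Klk1 has near-identical neighbours in the Klk1b family, whose transcripts a probe set may share, and its values are uncertain in that respect. Of 18 other kallikreins measured, 2 rose, 2 fell and 14 did not pass, where 18.5% of all genes rose and 21.2% fell. Klk1b5, the next gene on the chromosome (chr7:44216474-44220703), fell by 1.74 from a control level of 4.45 (adjusted p = 5.97e-05), and Klk1b16 by 0.78 from 4.73 (adjusted p = 0.000872). Klk8 rose by 0.49 from 4.77 and Klk10 by 0.22 from 2.71. The arrays' lower quartile was 3.82 to 3.92. Klk10 lay below it on every array (2.55 to 3.00) and Klk1b5 in all inflamed colons (2.57 to 2.80), so the sizes of both are uncertain. Control means of these 18 genes ran from 2.71 for Klk10 to 6.0 for Klk9.

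The measured difference of Muc2 itself was small (chr7:141690340-141754691). The values were 14.09, 13.49, 14.01 and 13.95 in control, 13.40, 13.80 and 13.40 in moderately and 13.17, 13.64 and 13.52 in severely inflamed colon. Control replicate 2 lay among the inflamed colons, and 3 of the 6 inflamed colons were below every control. Muc2 fell by 0.39 or 1.31-fold (standard error 0.14, limma adjusted p = 0.0383). The call ended without control replicate 1, 3 or 4, severe replicate 1 or 3, or moderate replicate 1 or 3 (-0.40 to -0.33, adjusted p from 0.0585 to 0.119), with arrays centred on their median (adjusted p = 0.0933) and under the methods' t test (adjusted p = 0.0766). Over all arrays left out in turn the difference ran from -0.53 to -0.33. Without control replicate 2, Muc2 passed in severely (-0.57, limma adjusted p = 0.0149) and in moderately inflamed colon (-0.48, 0.0382), each against control. Its values stood close to the highest of an array, 14.44 to 14.61, and whether that narrowed the difference was not tested.

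Agr2 (chr12:35992925-36004081) read 13.48, 13.17, 13.34 and 13.17 in control, 12.76, 12.81 and 13.21 in moderately and 12.98, 13.09 and 13.01 in severely inflamed colon. Here 5 of 6 inflamed colons were below the controls, with moderate replicate 3 among them. Agr2 fell by 0.31 or 1.24-fold (standard error 0.10, limma adjusted p = 0.0282), and a dimmer probe set, 1455802_x_at, differed by -0.26 and did not pass (adjusted p = 0.159). The call ended without control replicate 1 or 3 or moderate replicate 1 or 2 (-0.29 to -0.25, adjusted p from 0.0513 to 0.0957) with arrays centred on their median (-0.25, adjusted p = 0.0736) and with the mean over probe sets (-0.28, adjusted p = 0.0705).

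Clca1 (chr3:145004537-145032776) spread widely among the inflamed colons, over 2.22 log2 units, close to the 2.24 of Muc1. It was 13.97, 13.94, 13.96 and 13.96 in control, 13.14, 13.59 and 13.56 in moderately and 11.37, 13.53 and 12.54 in severely inflamed colon. All 6 inflamed colons lay below the controls, which differed from each other by at most 0.03, and severe replicate 1 lay furthest below. With adjustment over all genes, the difference of -1.0 (standard error 0.38) just missed the threshold (limma adjusted p = 0.0526). It passed without severe replicate 1 (-0.68, adjusted p = 0.0153), severe replicate 2 (-1.12, 0.0431), moderate replicate 2 (-1.13, 0.0375) or moderate replicate 3 (-1.12, 0.0395). It also passed with dim genes left out, relative to pan-epithelial genes, with array weights, in the 3-group model and with the mean over probe sets (-1.49 to -0.96, adjusted p from 0.0248 to 0.0432).

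A second probe set of Clca1, 1459889_at, also had its lowest value in severe replicate 1. It read 8.82, 8.71, 8.67 and 8.57 in control, 7.05, 7.64 and 7.74 in moderately and 4.30, 7.52 and 6.04 in severely inflamed colon. All inflamed colons were below all controls, and the highest of them was moderate replicate 3 here and moderate replicate 2 in the brighter probe set. This probe set fell by 1.98 or 3.94-fold (standard error 0.56, adjusted p = 0.0144 over all probe sets), against a difference of -1.0 for the brighter one. Adjusted over all probe sets, the brighter one, 1416306_at, was called lower as well (limma adjusted p = 0.0498). The brighter probe set stood close to the top of the scale, where the highest value of an array was 14.44 to 14.61, and whether that narrowed its difference was not tested. Of all 18 probe sets, 4 were higher, 7 were lower and 7 did not pass, against 16.5% higher and 19.4% lower over all probe sets.

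**Figure D2:**
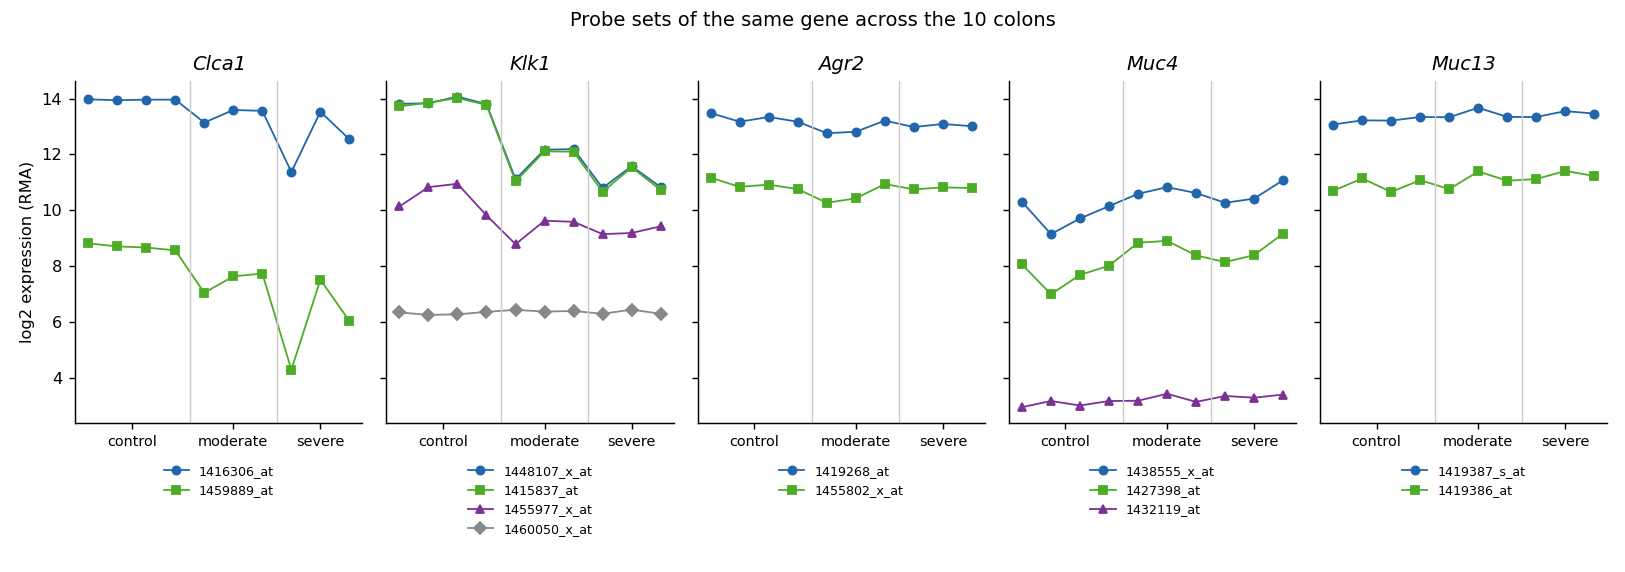
Log2 expression of every probe set of the 5 genes that have more than 1, in 4 control, 3 moderately and 3 severely inflamed colons, in order of replicate number within each group; lines only join the points of a probe set. The dimmer probe set of Clca1 falls to 4.30 in severe replicate 1, and the dimmest of Klk1 stays between 6.26 and 6.45.

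Fcgbp (chr7:28071236-28120864) followed Clca1 from colon to colon. It read 12.81, 12.90, 12.92 and 12.91 in control, 12.15, 12.98 and 12.59 in moderately and 11.29, 12.67 and 12.03 in severely inflamed colon. Only moderate replicate 2 was not below the controls. The difference of -0.60 (standard error 0.26) did not pass the test (limma adjusted p = 0.0891), but did so without moderate replicate 2 (-0.74, adjusted p = 0.0285), relative to pan-epithelial genes (-0.70, 0.0414) and with array weights (adjusted p = 0.0496). Tff3 (chr17:31125306-31129611) was 13.64, 13.95, 13.99 and 13.92 in control, 13.08, 13.89 and 13.49 in moderately and 13.21, 13.69 and 13.59 in severely inflamed colon. For Tff3, 4 of 6 inflamed colons lay below the controls and the difference was -0.38 (standard error 0.15, adjusted p = 0.0581). It passed without control replicate 1 (-0.46, adjusted p = 0.0441) or moderate replicate 2 (-0.46, 0.0173), relative to pan-epithelial genes (-0.48, 0.0129), with a replicate block (-0.37, 0.0139), with dim genes left out (adjusted p = 0.0462) and with array weights (adjusted p = 0.035).

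Spink4 (chr4:40920056-40931395) showed no difference that could be told from the spread. It was 13.39, 12.86, 13.14 and 13.02 in control, 12.78, 13.52 and 12.87 in moderately and 12.90, 13.04 and 12.69 in severely inflamed colon. Its values overlapped throughout, with the highest of all in moderate replicate 2. The difference was -0.13 (standard error 0.15, limma adjusted p = 0.526). Of the 7 members other than membrane mucins, 3 thus fell and 4 did not pass.

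Set against control separately, severely inflamed colon had 2 members higher, where 16.1% of all genes were, and 3 lower, where 18.9% were. Muc1 rose by 2.02 or 4.05-fold (standard error 0.42, limma adjusted p = 0.00366) and Muc4 by 0.76 (adjusted p = 0.0473). Klk1 fell by 2.81 or 7.01-fold (standard error 0.26, adjusted p = 2.9e-05), Clca1 by 1.48 or 2.78-fold (standard error 0.37, adjusted p = 0.0103) and Fcgbp by 0.89 or 1.85-fold (standard error 0.28, adjusted p = 0.0274). Severe replicate 1 carried much of the last pair: without it Clca1 fell by 0.92 (adjusted p = 0.0126), and Fcgbp differed by -0.54 and did not pass (adjusted p = 0.0913). The call of Fcgbp also ended without severe replicate 3 or any 1 control (-0.91 to -0.88, adjusted p from 0.0501 to 0.0672). That of Muc4 ended without control replicate 2 (0.53, adjusted p = 0.0935), severe replicate 3 (0.51, 0.198), control replicate 3, severe replicate 2 or any 1 moderately inflamed colon (0.72 to 0.85, adjusted p from 0.0552 to 0.102). Muc4 was not called either relative to pan-epithelial genes, with trend and robust variance, under the t test or with a replicate block (adjusted p from 0.057 to 0.192), nor were Clca1 and Fcgbp under the t test (adjusted p = 0.0948 and 0.109).

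Moderately inflamed colon had 1 member higher, where 13.2% of all genes were, and 2 lower, where 16.7% were. Klk1 fell by 2.06 or 4.16-fold (standard error 0.26, limma adjusted p = 0.000301) and Agr2 by 0.36 (standard error 0.12, adjusted p = 0.0452), and Muc4 rose by 0.85 (standard error 0.27, adjusted p = 0.034). Muc1 differed by 0.98 (adjusted p = 0.11), with moderate replicate 2 at 9.19 and the other two at 7.39 and 7.14, and passed without moderate replicate 3 (1.36, adjusted p = 0.0444). Clca1 and Fcgbp differed by -0.53 and -0.31 (adjusted p = 0.327 and 0.433). For Clca1 all 3 moderately inflamed colons lay below the controls (13.14 to 13.59 against 13.94 to 13.97). It passed under the methods' t test (-0.53, adjusted p = 0.041). The call of Muc4 ended without any 1 moderately inflamed colon or control replicate 2 or 3 (0.62 to 0.89, adjusted p from 0.0627 to 0.0997), and that of Agr2 without any 1 array except moderate replicate 3 (-0.40 to -0.28, adjusted p from 0.0507 to 0.166). Array weights and the t test ended both calls, and centring on the median, a replicate block or the mean over probe sets that of Agr2 (adjusted p from 0.0597 to 0.149 over all of these). Tff3 passed relative to pan-epithelial genes (-0.49, adjusted p = 0.0455), with a replicate block (-0.37, 0.0463) and without moderate replicate 2 (-0.59, 0.0269). Both comparisons share the 4 control colons.

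**Figure D3:**
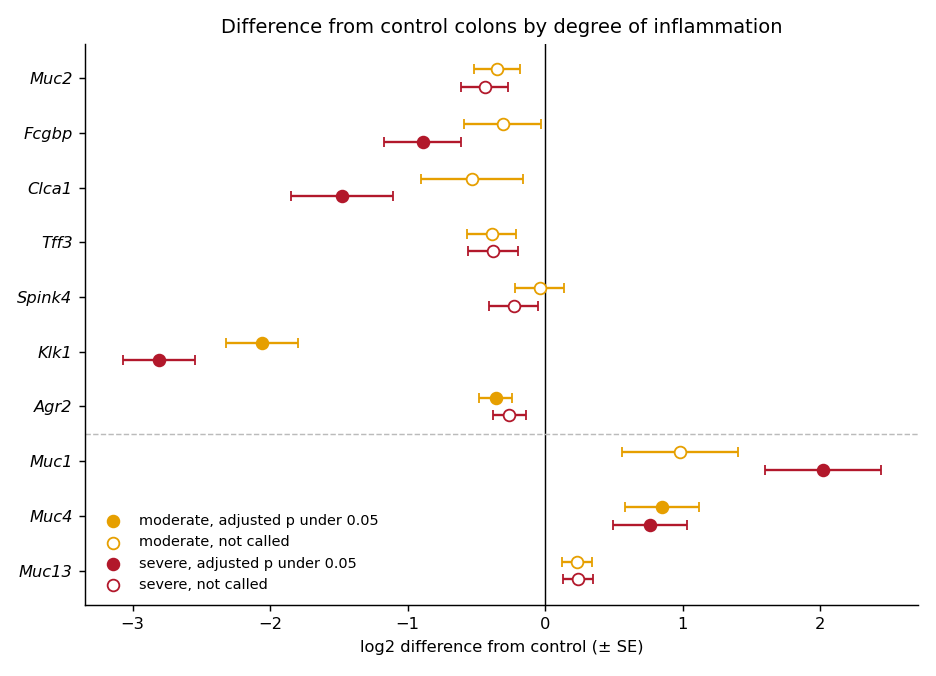
Log2 difference from the mean of the 4 controls (bars, standard error of the fit) for the 3 moderately (orange) and 3 severely (red) inflamed colons; filled points were called by limma at 0.05 after adjustment, open points were not. The 3 membrane mucins lie under the dashed line and to the right of 0, and Klk1 is furthest to the left at -2.81 and -2.06.

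Severely and moderately inflamed colons were then compared with each other. No member and no other gene passed the test (0% of all genes at an adjusted p under 0.05, limma). At an unadjusted p under 0.05, 3 of the 10 members differed, against 5.07% of all genes. These were Clca1 (-0.95, standard error 0.40), Klk1 (-0.75, standard error 0.28) and Muc1 (1.04, standard error 0.45), with limma adjusted p from 0.953 to 0.98. The sizes depended on single colons. With 1 array left out they ran from -1.48 to -0.40 for Clca1, -1.11 to -0.57 for Klk1 and 0.66 to 1.68 for Muc1. The differences of Muc13 and Tff3 were 0.01 each, with standard errors of 0.11 and 0.19.

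From colon to colon the members did not keep 1 order. Severe replicate 1 was the lowest inflamed colon for Muc2, Fcgbp, Clca1, Klk1 and Muc4 and the highest for Muc1. Moderate replicate 2 was the highest inflamed colon for Muc2, Muc13, Fcgbp, Clca1, Tff3 and Spink4, and also had the second highest Muc1. For Clca1 the difference from the control mean ran from -2.58 in severe replicate 1 to -0.36 in moderate replicate 2, and for Fcgbp from -1.60 to 0.09 in the same colons. For Klk1 the difference ran from -3.08 in severe replicate 1 to -1.69 in moderate replicate 3.

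**Figure D4:**
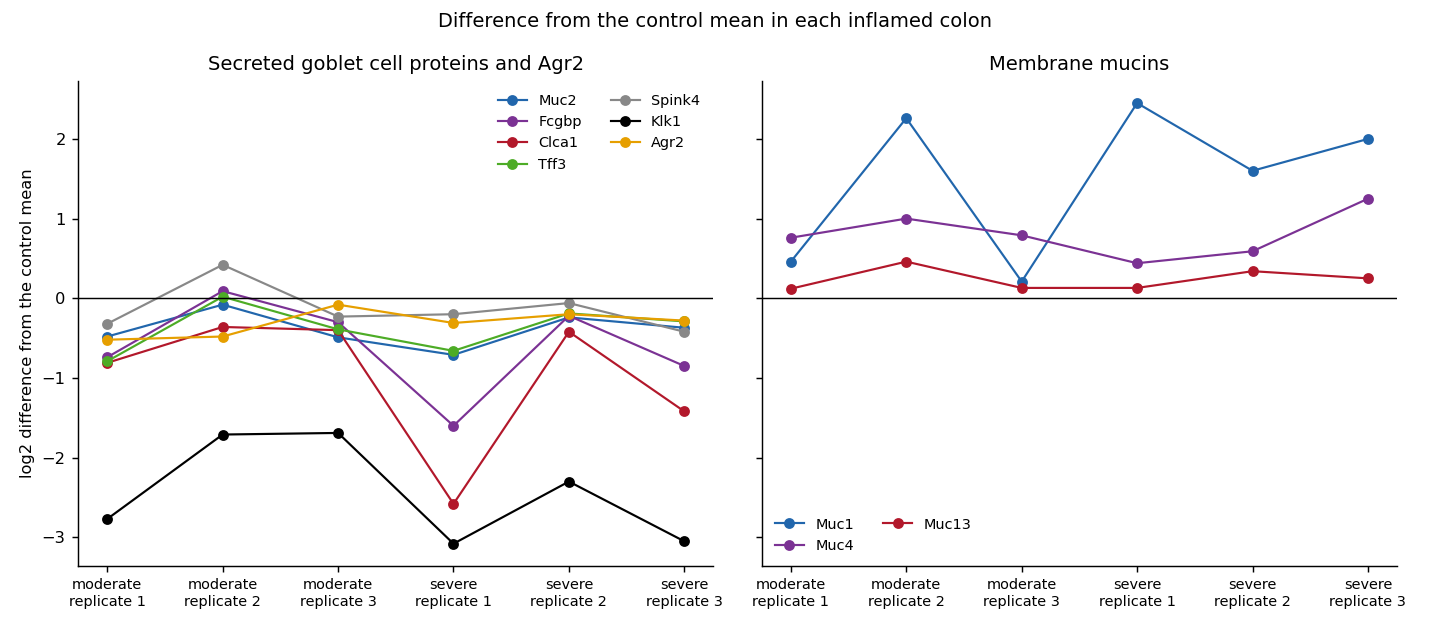
Log2 difference of each of the 6 inflamed colons from the mean of the 4 controls, for the secreted proteins and Agr2 (left) and the membrane mucins (right); lines only join the points of a gene, and replicates have no order. Clca1 and Fcgbp are lowest in severe replicate 1, at -2.58 and -1.60, where Muc1 is highest at 2.45.

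The genes whose values ran most like each member over the 10 colons were found by Pearson's r among the 9096 genes with a mean above the median, as a description: all points share the same arrays and the split between control and inflamed. Fcgbp was most like Zg16, a lectin-like mucus protein that binds bacteria (r = 0.99), followed by Bcas1, Slc26a3 and Clca1 (0.97 each). After the mean of each group was subtracted, Zg16 was again first for Fcgbp (0.99), and Clca1 stood at 0.94. Clca1 was most like Slc26a3, the chloride exchanger of surface colonocytes, and Car4, a membrane carbonic anhydrase of the same cells (0.99 each), and within groups again Slc26a3 (0.98), Car4 and Muc3 (0.97 each). Zg16 itself was 14.39 to 14.48 in control and 13.82 to 14.46 in inflamed colon, and its difference of -0.25 did not pass the test (adjusted p = 0.0957). Slc26a3 differed by -0.58 (adjusted p = 0.0513) and Car4 fell by 0.90 (adjusted p = 0.0348), and both were lowest in severe replicate 1, at 12.23 and 11.15.

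Klk1 was most like Maoa, monoamine oxidase A, and Pck1, an enzyme of gluconeogenesis (0.99 each). Muc2 was most like Rap1gap (0.96), and within groups Elapor1 (0.98). Muc1 was most like Plat, tissue plasminogen activator, and Adamtsl4 (0.97 each). Plat had the same 2 low moderately inflamed colons as Muc1, at 7.18 and 7.15, against 9.58 in moderate replicate 2. Between members, Muc1 ran against Clca1 and Klk1 over the 10 arrays (r = -0.72 and -0.75), while within groups r was -0.23 with Clca1 and 0.15 with Klk1.

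Genes of the rest of the mucus pathway moved in both directions. In a list of 15 other genes of goblet cell cargo, 6 were called higher, 3 lower and 6 neither (median difference 0.02). Over all genes 18.5% were called higher and 21.2% lower. Those called higher included Clca4b, Clca3a1 and Clca3a2, relatives of Clca1, and whether goblet cells made them here was not tested. Clca4b, a relative of Clca1, was 7.21, 6.66, 5.57 and 10.04 in control and 13.35 to 13.84 in all 6 inflamed colons. It rose by 6.29 (standard error 0.63, limma adjusted p = 1.96e-05), with the size uncertain because the controls were so spread. Retnlb, a resistin-like protein that goblet cells secrete against bacteria, rose by 3.13 (adjusted p = 0.00528), from controls of 7.61 to 12.79. Reg4, a secreted lectin, fell by 3.34 (adjusted p = 0.000529), from 10.60 to 11.71 in control to 6.30 to 9.80 in inflamed colon, and Sval1 fell by 0.83.

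Clca1 lies in a cluster of its family on chromosome 3, and the other genes of the cluster were singled out after their values were seen. Of the 7 other family members measured there, 5 rose, 0 fell and 2 did not pass, where 18.5% of all genes rose and 21.2% fell. Along the chromosome these were Clca3a1 (chr3:144729677-144760977), which rose by 1.51, Clca3a2 by 2.25, Clca3b by 2.23, the pseudogene Clca4c-ps by 2.58 and Clca4b (chr3:144910921-144932529). Clca4a, next to Clca1, was 12.72 in control and differed by 0.08 (limma adjusted p = 0.794), and Clca2 on its other side was dim at 3.46. As genes of 1 family they may share probes, which was not tested.

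Transcription factors of goblet cells fell or did not pass. Of 10 measured, 0 rose, 6 fell and 4 did not pass, with a median of -0.54, where 18.5% of all genes rose and 21.2% fell. Foxa2, a forkhead factor of goblet cells, fell by 1.28 (standard error 0.13, limma adjusted p = 1.96e-05) with all inflamed colons at 7.87 to 8.42 and all controls at 9.24 to 9.63. Atoh1, the factor behind all secretory cells of the gut, fell by 1.05 and was lowest in severe replicate 1 at 8.05. Of 16 genes of granules and exocytosis, 3 rose, 3 fell and 10 did not pass, near the 18.5% and 21.2% of all genes. Best2, a bicarbonate channel of goblet cells, fell by 1.34 and Syt7, a calcium sensor of exocytosis, by 1.07. Over the 4 probe sets of Syt7 the differences ran from -1.07 to -0.22, so the size of its fall is uncertain. Rab27a rose by 0.47 and Marcks by 0.37 in their brightest probe sets. Over the 4 probe sets of Rab27a the differences ran from -0.05 to 0.47, and over the 7 of Marcks from -0.31 to 0.37, so these rises are uncertain.

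Genes of folding in the endoplasmic reticulum rose more often than they fell. Of 27 measured, 15 rose, 4 fell and 8 did not pass, with a median of 0.26, where 18.5% of all genes rose and 21.2% fell. Ero1a, an oxidase that forms disulfide bonds, was 8.98 to 9.08 in control and 9.94 to 10.86 in inflamed colon and rose by 1.32 (standard error 0.16, limma adjusted p = 5.18e-05), and Creld2 rose by 1.11. Agr3, the close relative of Agr2, fell by 1.27 (adjusted p = 0.000866), from a low 4.44 to 2.94 to 3.30 in inflamed colon, below the arrays' lower quartile, so that its size is uncertain. Ern2, the stress sensor found in goblet cells, fell by 0.87 (adjusted p = 0.000352).

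Calls among genes that add sugars to mucins went in both directions. Of 30 genes of mucin O-glycosylation, 5 rose, 10 fell and 15 did not pass, with a median of -0.21. Over all genes 18.5% rose, near the share here, and 21.2% fell. B3gnt6, which makes the core 3 structure of colonic mucin, was 8.87, 6.15, 8.72 and 8.31 in control and 4.83 to 6.22 in inflamed colon. It fell by 2.59 (standard error 0.48, limma adjusted p = 0.00116), with control replicate 2 inside the inflamed range, the colon that was also lowest of the controls for Muc2 and Muc4. Slc26a2, a sulfate transporter, fell by 1.68 (adjusted p = 0.000175). Fut2, which adds terminal fucose, rose by 1.50 (adjusted p = 0.00153), from 9.79 to 10.46 in control to 10.29 to 12.00 in inflamed colon, and B3gnt3 rose by 0.66.

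All 8 genes that crosslink or cleave mucins changed, 5 up and 3 down, where 18.5% of all genes rose and 21.2% fell. Of those that rose, Mmp9 is also in the neutrophil list below and Mmp7 in the small intestinal list. The transglutaminase Tgm3, which crosslinks Muc2, fell by 3.69 (standard error 0.50, limma adjusted p = 0.000144), from 11.49 to 12.02 in control to 6.26 to 9.28 in inflamed colon. Tgm2, a tissue transglutaminase, rose by 2.27 (adjusted p = 3e-06), from 9.91 to 10.28 to 11.71 to 12.58. Mep1a and Mep1b, the subunits of the meprin metalloproteases, of which Mep1b is known to release small intestinal mucus, fell by 2.84 and 0.87 (adjusted p = 4.22e-05 and 0.0107), and Mmp7, matrilysin, rose by 2.70 (adjusted p = 0.0087). Tgm3 and Tgm2 thus moved in opposite directions without overlap in either.

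**Figure D5:**
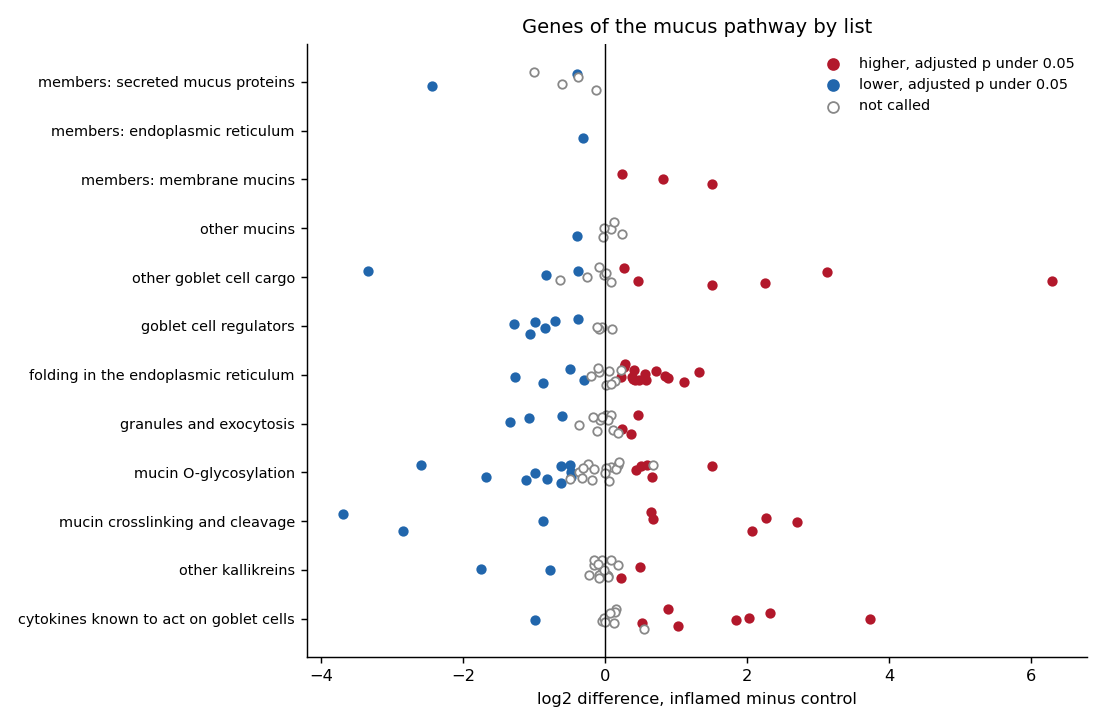
Log2 difference of each gene, inflamed (6 colons) minus control (4 colons), by list, with the 10 members in the top 3 rows; red points were called higher and blue points lower by limma at an adjusted p of 0.05, and open points were not called. The goblet cell regulators have no red point, and crosslinking and cleavage genes run from -3.69 for Tgm3 to 2.70 for Mmp7.

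Of 16 cytokines and receptors known to act on goblet cells, 7 rose, 1 fell and 8 did not pass, where 18.5% of all genes rose and 21.2% fell. Ifng, interferon gamma, rose by 3.73 (limma adjusted p = 1.27e-06) and Il6 by 2.32 (adjusted p = 0.0138), both from dim control means of 3.75 and 2.81, so their sizes are uncertain. Il18, an epithelial cytokine, fell by 0.98 (adjusted p = 0.00967). Il13 and Il4, which drive goblet cell differentiation, were dim at 4.11 and 3.63 in control and differed by 0.16 and 0.07 (adjusted p = 0.0942 and 0.557).

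Markers of other cells moved with inflammation in the same colons, and their part in the results above was not tested. Over all genes, 18.5% were called higher and 21.2% lower. The mean log2 value of 22 pan-epithelial genes was 11.60 to 11.68 in control and 11.65 to 11.81 in inflamed colon (6 higher, 2 lower), from Esrp2 at 8.75 to Krt8 at 14.25 in control. Differences within this list reached from -1.01 for Ocln to 1.58 for Cldn4. Values relative to its mean are therefore not a measure per epithelial cell. The mean of 10 colonocyte genes was 12.61 to 12.83 in control and 10.15 to 11.67 in inflamed colon (1 higher, 6 lower), and all 12 smooth muscle genes fell (10.12 to 10.50 and 8.49 to 9.17). All 7 T cell genes rose (4.87 to 5.10 and 6.39 to 7.36), as did 6 of 7 of macrophages and monocytes (7.29 to 7.61 and 8.37 to 9.90) and 5 of 6 of neutrophils (4.15 to 5.04 and 6.31 to 8.60). Squamous genes, which would mark tissue of the anal canal, gave 5.00 to 5.13 and 4.95 to 5.05 (0 higher, 1 lower of 8), and gastric genes 5.09 to 5.21 and 5.16 to 5.41 (2 higher of 6). The small intestinal list gave 6.14 to 7.0 and 7.10 to 7.74 (2 higher of 5) and the pancreatic list 5.91 to 6.14 and 5.49 to 5.67 (1 higher, 1 lower of 5). All 8 enteroendocrine genes fell (8.81 to 9.13 and 7.04 to 8.0), as did 3 of 6 tuft cell genes (5.89 to 6.13 and 4.73 to 5.27).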

How the data were processed

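Distal colon RNA of 10 mice was hybridised to Affymetrix mouse arrays, 1 array per mouse. Trizol extraction is given per the labels, a Qiagen kit in the study's methods. The deposited values are log2 expression per probe set, which the authors made with Affymetrix Expression Console and RMA, per the labels (versions not given in the sources used here). RMA corrects the background, gives all arrays 1 distribution and summarises the probes, so a level can be compared between arrays but not between probe sets, and differences of very bright or very dim probe sets may be narrowed. Of 45101 probe sets, 34945 have 1 gene in the platform annotation and were used. Where a gene had several, the brightest on average stood for it, which left 18193 genes.

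Genes were tested with limma 3.58.1 (lmFit and eBayes) in R 4.3.3 with Benjamini-Hochberg adjustment over all genes, with 2 groups for inflamed against control and with 3 for the grades of inflammation. The members and lists were chosen with earlier results of these data known. All members are named, with the 2 largest called rises and falls per list. In simulated data with 18193 genes, 67, 67 and 66 genes were changed by 0.5, 1 and 2, with the same spread in all groups. Inflamed against control recovered 55.2%, 94% and 98.5% of them. In the data 3372 genes were called higher and 3850 lower, and spreads could differ between groups. These shares therefore do not give the power of the real comparison. Coordinates and promoters are RefSeq's, build GRCm38.p6. Alternatives varied the scaling, filter, probe sets, variance model, array weights, the test, a replicate block and each array left out. Figures were drawn with matplotlib 3.10.9.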

Additional observations from a re-analysis of the deposited data

Results flagged for a closer look

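Over 36 groups of values examined for a sample apart from the rest, 2 were found, and chance gives about 1 in 20. Fcgbp in control replicate 1 was 12.81, against 12.90 to 12.92 in the other controls. Klk1 in control replicate 3 was 14.07, against 13.80 to 13.83 in the other controls.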

How the results depend on the processing

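Klk1, Muc1 and Muc4 kept their call against control, all inflamed colons pooled, under every setting tried. In that comparison 3 members were higher, 2 relative to the pan-epithelial mean, under the methods' t test, in the 3-group model, with the mean over probe sets or without _x_at and _s_at probe sets, and 2 to 3 with 1 array left out, Muc13 being the member lost. In it 3 were lower, 5 with dim genes left out, 1 with arrays centred on their median, 6 relative to the pan-epithelial mean, 6 with array weights and 1 to 5 with 1 array left out. In severe colon 2 were higher, but 1 relative to the pan-epithelial mean, with trend and robust variance, under the methods' t test (Benjamini-Hochberg adjusted) or with a replicate block, and 1 to 2 with 1 array left out. There 3 were lower, 5 relative to the pan-epithelial mean, 1 under the t test and 2 to 3 with 1 array left out. In moderate colon 1 was higher, 0 with array weights or the t test and 0 to 1 with 1 array left out, and 2 were lower, 3 relative to the pan-epithelial mean, 1 with centring on the median, array weights or the mean over probe sets and 1 to 2 with 1 array left out. Among probe sets the t test gave 2 higher and 3 lower, and leaving out 1 array gave 3 to 6 higher and 4 to 8 lower. Between severe and moderate colon, 5, 1 and 20 genes of all passed without severe replicate 2, moderate replicate 1 and moderate replicate 2, and 922 had an unadjusted p under 0.05.

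Directions turned only for differences near 0. For Spink4 in moderate colon the value was 0.02 with centring on the median and 0.05 to 0.09 without control replicate 1, moderate replicate 1 or moderate replicate 3, from a lowest of -0.28 over all arrays left out. For severe against moderate the values with 1 array left out ran from -0.05 to 0.12 (Muc13), -0.19 to 0.05 (Muc2), -0.34 to 0.07 (Muc4), -0.32 to 0.05 (Spink4) and -0.19 to 0.21 (Tff3), and Muc4 was 0.11 with array weights. Probe set 1460050_x_at of Klk1 stood at -0.04 relative to the pan-epithelial mean. Causes were not tested. Of 850 values of single members, 740 kept direction and side of the threshold, 67 no longer passed, 28 passed anew and 15 turned.

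The methods name no pairing of colons by replicate number. Deviations of colons with the same number correlated at -0.01 to 0.03 between control and severe and -0.08 to 0.06 between control and moderate. Different numbers gave -0.18 to 0.17 there. Between severe and moderate the same number gave 0.29, 0.25 and -0.03 for replicates 1, 2 and 3, and different numbers -0.31 to 0.06. Whether severe and moderate colons of the same number shared a batch was not tested. With the replicate number as a block, Muc2 differed by -0.37 (adjusted p = 0.125) and Tff3 by -0.37 (adjusted p = 0.0139). Without scan dates or detection calls, neither batches nor signal over background were examined.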
